A study of Mus musculus with 114 samples.

Results

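The genes described here are the cAMP response element binding factors Creb1 and Crem, the CREB-regulated transcription coactivators Crtc1, Crtc2 and Crtc3, and the salt-inducible kinases Sik1, Sik2 and Sik3, each taken by its symbol. Of these 8 genes, 7 had a row among the 13101 gene identifiers of the count table. Sik1 had no row in that table and is not analysed here. CREB1 and CREM bind cAMP response elements (CREs) in promoters, and short products of Crem, such as ICER, act as repressors. CRTC proteins are coactivators of CREB: when salt-inducible kinases phosphorylate them they are held in the cytoplasm by 14-3-3 proteins, and cAMP, which inhibits the kinases, and calcium, which activates the phosphatase calcineurin, release them to the nucleus. In the mouse suprachiasmatic nucleus, CRTC1 and SIK1 take part in how light resets the clock, and in forebrain neurons CRTC1 moves from synapse to nucleus with activity.

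The libraries hold RNA carried by HA-tagged ribosomes that were pulled down from brain of Ribo-tag mice, of both sexes, at ZT2, ZT6, ZT10, ZT14, ZT18 and ZT22 (zeitgeber time, hours after lights on). The series describes PV (parvalbumin) and pyramidal cells of the prefrontal cortex, but within each library the cell type named by the title differs from the one entered as cell type. Libraries were therefore grouped by the prefix of their title, as PV libraries (n = 55, 28 female and 27 male) and C libraries (n = 58, 29 of each sex), with 8 to 10 libraries per prefix and time. Mean Pvalb, the parvalbumin gene, was 38.9 CPM (counts of a gene per M counts on all genes, after TMM scaling) in PV and 1.07 CPM in C libraries, and Slc17a7, the vesicular glutamate transporter of pyramidal cells, averaged 721 and 1710 CPM. No treatment, age, or Cre driver of the tag is given in the labels used here. They also do not say whether libraries came from separate mice, so p-values measure the spread between libraries, which may be technical.

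PV libraries held 19.1 to 39.5 M counts on genes and C libraries 24.6 to 44.1 M. For 8 libraries the median correlation with the others of the same prefix was low, and these are called apart below. Of them, 3 are PV libraries from ZT10, ZT14 and ZT22, at 0.806 to 0.853 where the median library had 0.936. The other 5 are C libraries, 2 at ZT2 and 3 at ZT6, with 0.875 to 0.939 where the median was 0.977. Library numbers in the titles fall into a first range (26 PV and 29 C libraries) and a second range (29 of each prefix), and the range was a term of each fit. Between ranges 41.6% of all genes differed, among them Crtc3, Sik2 and Crtc1.

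All positions are in GRCm38. Creb1 (ENSMUSG00000025958) lies on chr1:64532645-64604548, Crtc1 (ENSMUSG00000003575) on chr8:70382355-70439579, Crtc2 (ENSMUSG00000027936) on chr3:90254163-90264125 and Crtc3 (ENSMUSG00000030527) on chr7:80586627-80688877. Sik2 (ENSMUSG00000037112) and Sik3 (ENSMUSG00000034135) are both on chromosome 9, at chr9:50892801-51009073 and chr9:46012820-46224194. The library preparation, as the labels describe it, names no step that keeps strand. Of the exonic bases of Sik2, 14.98% overlap exons of Ppp2r1b on the opposite strand, so reads from that stretch cannot be told apart.

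RefSeq promoter windows (GRCm38.p6, 250 bases before to 50 after the start) were found for Creb1, Crtc1, Crtc3, Sik2 and Sik3. The promoter of Crem was not examined, and no window was found for Crtc2. The core of the CRE, TGACG on either strand, occurred in the windows of Sik2 and Sik3 and in 20.8% of 32851 promoters. The full site TGACGTCA was in none of the 5 windows and in 1.79% of all promoters. The windows of both kinases are shown because they carry the letters that CREB and CREM recognise, with each core in capitals.
Sik2, chr9:51009024-51009323, minus strand: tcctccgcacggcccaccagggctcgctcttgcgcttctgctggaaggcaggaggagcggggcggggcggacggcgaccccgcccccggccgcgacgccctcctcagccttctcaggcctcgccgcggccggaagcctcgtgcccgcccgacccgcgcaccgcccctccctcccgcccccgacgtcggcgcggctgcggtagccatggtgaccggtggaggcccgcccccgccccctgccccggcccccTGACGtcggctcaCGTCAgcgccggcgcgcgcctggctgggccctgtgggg
Sik3, chr9:46012570-46012869, plus strand: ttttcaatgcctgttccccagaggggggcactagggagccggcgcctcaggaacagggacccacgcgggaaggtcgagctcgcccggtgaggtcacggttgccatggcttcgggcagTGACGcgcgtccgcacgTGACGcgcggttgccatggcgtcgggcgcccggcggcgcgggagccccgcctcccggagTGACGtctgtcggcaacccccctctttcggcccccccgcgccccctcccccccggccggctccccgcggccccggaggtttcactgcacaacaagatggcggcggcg
Counted from the start, which is 0, the Sik2 cores begin at -1 and 12, the latter on the opposite strand, and the Sik3 cores at -133, -116 and -57. The Sik3 window also holds an E-box (CACGTG, in 7.15% of promoters) at -120, which overlaps the core at -116. A match of letters does not show that a factor binds there.

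Levels of the genes in PV and C libraries were compared first. Crtc2 and Crtc3 were higher in PV libraries by 2.35-fold and 2.83-fold, and Sik2 by 1.34-fold. Creb1, Crem, Crtc1 and Sik3 were higher in C libraries, by 1.19-fold to 1.55-fold. All 7 genes thus passed the test (edgeR quasi-likelihood test, adjusted p under 0.05 over 13046 genes), 3 in one direction and 4 in the other. Of all genes, 44.3% were called higher in PV libraries and 43.2% were called lower in them, so a call by itself is the usual outcome here. The median log2 difference, PV minus C, was -0.25 over the 7 genes and 0.008 over all genes. In pull-downs of this kind, a change in the mix of cells and a change in RNA per cell cannot be told apart.

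**Figure D1:**
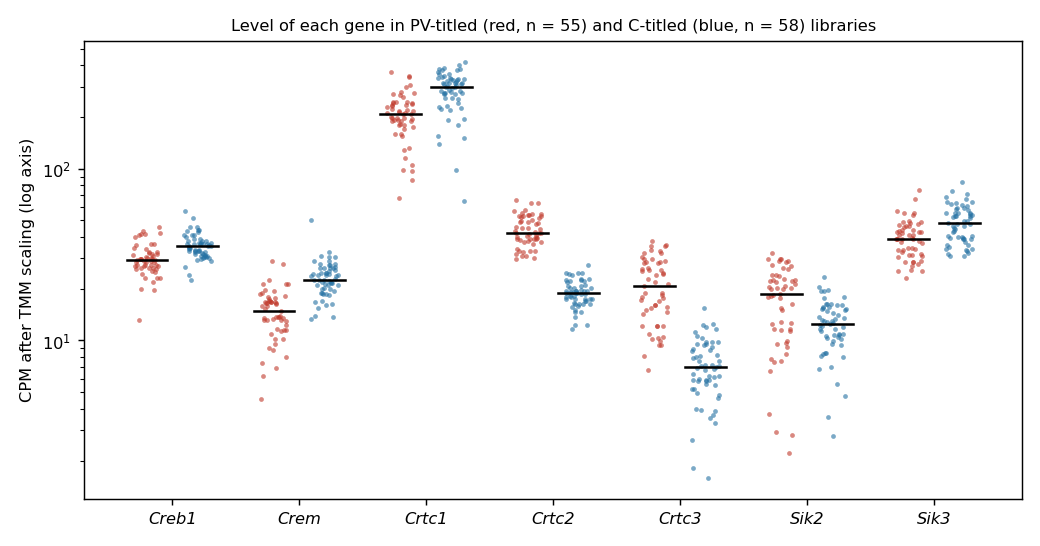
CPM after TMM scaling (log axis) of each gene in each library. Red points are 55 PV and blue points 58 C libraries, and black bars are medians; Crtc2 is the gene whose clouds do not overlap (29.7 to 65.8 against 11.7 to 27.7 CPM).

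Among the binding factors, Crem had a larger log2 difference than Creb1. Crem (ENSMUSG00000063889, chr18:3266048-3337748) has products that activate or repress CRE-driven genes, and its 39 annotated transcripts are summed in 1 count. Of its exonic bases, 8.01% overlap Gm6225, with reads there that cannot be told apart. Crem ranged from 4.55 to 29.0 CPM (median 14.9) in PV and from 13.2 to 49.9 CPM (median 22.6) in C libraries. The ranges overlapped, with 55 of 58 C libraries above the PV median. The log2 difference, PV minus C, was -0.63 (SE 0.07, edgeR adjusted p = 3.11e-13). Creb1, the activator, ranged from 13.2 to 45.7 CPM (median 29.4) in PV and from 22.6 to 56.7 CPM (median 35.2) in C libraries. These ranges overlapped widely, and the log2 difference was -0.25 (SE 0.05, edgeR adjusted p = 2.58e-06). At ZT2 the medians of Creb1 were in the opposite order, 38.2 CPM in PV and 36.3 CPM in C libraries, while Crem was higher in C libraries at all 6 times and its ranges were apart at ZT2. The share of all genes with ranges apart at a given time was not counted.

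The CRTC genes split. Crtc1, the CRTC known for its role in neurons, ranged from 67.7 to 364 CPM (median 206.8) in PV and from 64.7 to 417 CPM (median 301) in C libraries. The groups overlapped, with 50 of 58 C libraries above the PV median. Its log2 difference was -0.48 (SE 0.08, edgeR adjusted p = 2.48e-08). Crtc2, best known as a regulator of glucose production in liver, ranged from 29.7 to 65.8 CPM (median 42.5) in PV and from 11.7 to 27.7 CPM (median 18.9) in C libraries. Each of the 55 PV libraries lay above each of the 58 C libraries, and the ratio of medians stayed between 2.11 and 2.48 over the 6 times. How many of all genes separate in this way was not counted. Among the log2 differences of all genes, that of Crtc2 ranked at percentile 83.5. The log2 difference was 1.23 (SE 0.05, edgeR adjusted p = 3.58e-43). Crtc3 ranged from 6.75 to 38.0 CPM (median 20.7) in PV and from 1.58 to 15.4 CPM (median 6.97) in C libraries. Of the PV libraries, 39 of 55 lay above the highest C library. The log2 difference of Crtc3 was 1.5 (SE 0.09, edgeR adjusted p = 2.14e-32).

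The composition of the CRTC pool therefore differed on a scale of CPM per kilobase of exons. Crtc1 made up 57.9% ± 8.59 (SD, n = 55) of the summed level of the 3 genes in PV and 81.7% ± 5.81 (SD, n = 58) in C libraries. The share of Crtc2 was 35.3% ± 8.45 in PV and 15.9% ± 5.79 in C libraries, and that of Crtc3 was 6.77% ± 2.24 and 2.44% ± 1.19. Crtc1 remained the most abundant CRTC gene on average under both prefixes. In 54 of 58 C libraries its share was above that of any PV library. These shares follow from the levels above and were not tested separately.

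**Figure D2:**
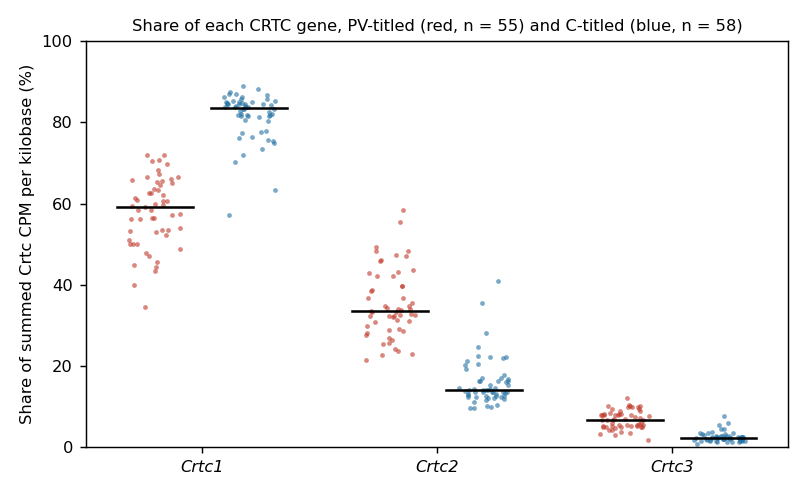
Share of Crtc1, Crtc2 and Crtc3 in their summed CPM per kilobase of exons, in percent. Red points are 55 PV and blue points 58 C libraries, and black bars are medians; the median share of Crtc1 is 59.1% in PV and 83.5% in C libraries.

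The kinases moved in opposite directions. Sik2, which phosphorylates CRTC proteins, ranged from 2.22 to 32.5 CPM (median 18.5) in PV and from 2.78 to 23.3 CPM (median 12.5) in C libraries. The range of the PV libraries spanned that of the C ones, with 14 of 55 above it and 1 below it. At ZT10 the medians were in the opposite order, 11.4 CPM in PV and 12.2 CPM in C libraries. The log2 difference was 0.43 (SE 0.11, edgeR adjusted p = 0.000428). Sik3, in which a mouse mutation raises sleep need, ranged from 23.1 to 75.5 CPM (median 38.9) in PV and from 30.8 to 84.1 CPM (median 48.03) in C libraries. Overlap was again wide, and at ZT18 the medians were in the opposite order, 41.3 CPM in PV and 39.5 CPM in C libraries. The log2 difference was -0.28 (SE 0.07, edgeR adjusted p = 7.36e-05). Sik2 made up 29.7% ± 12.1 (SD, n = 55) of the summed Sik2 and Sik3 level per kilobase in PV and 20.8% ± 8.18 (SD, n = 58) in C libraries.

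The range of library numbers bears on Sik2 and Crtc3. In the first range, median Sik2 was 11.5 CPM in PV and 11.6 CPM in C libraries. In the second range these medians were 22.5 and 14.5 CPM. Fitted within a range, the log2 difference of Sik2 was 0.12 (edgeR adjusted p = 0.606) in the first and 0.71 (adjusted p = 6.36e-09) in the second, so the call rests on the second range. The product of prefix and range, added after these values were seen, was past the threshold for Sik2 (0.61 on the log2 scale, SE 0.22, adjusted p = 0.0464) and for Crtc2 (0.36, SE 0.10, adjusted p = 0.0095), as for 16% of all genes. For Crtc2 both ranges gave a call, with log2 differences of 1.06 and 1.41. Median Crtc3 rose with the range under both prefixes, from 13.2 to 28.4 CPM in PV and from 5.61 to 8.97 CPM in C libraries, and its log2 difference was 1.37 in the first and 1.62 in the second range. The other 4 genes were called in the same direction within each range.

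Scaling bears on the small differences. With library totals alone, the median log2 difference of all genes moved from 0.008 to 0.21, and the share of calls that were higher in PV libraries moved from 50.6% to 61.7%. Under that scaling Creb1 (-0.05, adjusted p = 0.363) and Sik3 (-0.08, adjusted p = 0.287) were not called. Relative to the median of all genes they stood at -0.26 and -0.29. This subtraction recentres the values much as TMM scaling does, so their closeness to the values above is not separate evidence. Crem, Crtc1, Crtc2, Crtc3 and Sik2 were called in the same direction under each of the 3 scalings.

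Cell type markers differed between the prefixes as well. All 8 markers of PV interneurons and 4 of GABAergic cells were called higher in PV libraries. Per library, the summed level of 7 astrocyte markers was 1045 to 2504 CPM in PV and 318 to 1179 CPM in C libraries. For 5 oligodendrocyte markers it was 200.7 to 704 and 76.0 to 281 CPM, for 6 microglia markers 98.6 to 187.3 and 26.1 to 60.7 CPM, and for 6 endothelial and mural markers 113 to 232.1 and 13.2 to 65.8 CPM. All 24 of these glial and vascular markers were called higher in PV libraries, and none had a median of 0 in either group. The 6 markers of other interneurons went both ways. Called higher in PV libraries were 3, Npy (log2 difference 3.12), Vip (2.50) and Sst (2.25). Called higher in C libraries were 2, Cck (-2.30) and Lamp5 (-1.61). The 6 summed to 547 to 1893 CPM in PV and 1301 to 3548 CPM in C libraries, a sum that hides these opposite directions. The 8 pyramidal markers were all called higher in C libraries, yet summed to 1304 to 3634 CPM in PV ones. The part of these cells in the differences of Crtc2, Crtc3 and Sik2 was not tested.

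Per kilobase of exons, Crtc1 was the highest of the 7 genes under both prefixes, at 18.6 ± 5.63 (SD, n = 55) CPM per kilobase in PV and 25.6 ± 6.63 (SD, n = 58) in C libraries. In PV libraries Crtc2 (10.8 ± 2.22) and Sik3 (4.28 ± 1.12) followed, and Crem, Creb1, Crtc3 and Sik2, at 2.52 to 1.86, differed from their neighbours by less than the SD. In C libraries the order after Crtc1 was Sik3 (5.25 ± 1.31), Crtc2 (4.63 ± 0.81), Crem (3.94 ± 0.98), Creb1 (2.60 ± 0.44), Sik2 (1.32 ± 0.44) and Crtc3 (0.731 ± 0.286). Sik3, Crtc2 and Crem were not separated beyond the SD there. With the longest transcript as length, Crem took the second place in C libraries.

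Profiles over the day were then fitted within each prefix by a 24 h cosine. In C libraries Crem, Creb1 and Crtc1 were called rhythmic, 3 of 7 genes, where 26.9% of all genes were called. In PV libraries edgeR called none of the 7 (1, Crtc1, at an unadjusted p under 0.05, and none by DESeq2), where 3.1% of all genes were called. The median amplitude (mean to peak, log2) of the 7 genes was 0.14 in PV and 0.13 in C libraries, and that of all genes 0.11 and 0.12.

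Crem showed the clearest profile. In C libraries its lowest, median and highest values were 21.1, 27.2 and 49.9 CPM at ZT2 and 16.8, 23.7 and 26.5 CPM at ZT6. At ZT10 they were 15.4, 19.9 and 22.4 CPM, and at ZT14 they were 13.2, 17.4 and 24.2 CPM. At ZT18 they were 18.6, 26.3 and 28.01 CPM, and at ZT22 they were 20.9, 25.01 and 32.6 CPM. Crem was thus lowest in the middle of the cycle, at ZT10 and ZT14, and high from ZT18 through ZT2. At ZT2, 7 of 10 libraries lay above all of those at ZT14. The fitted amplitude was 0.30 (SE 0.05, log2), a 1.53-fold change from trough to peak, with the peak at ZT23.8 (edgeR adjusted p = 1.8e-05). It was called within each range and each sex alone. Leaving out the 5 C libraries called apart, which include the one at 49.9 CPM, the amplitude was 0.27 (adjusted p = 2.18e-05).

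In PV libraries the medians of Crem lay between 13.1 CPM at ZT6 and 16.8 CPM at ZT18. The ranges of these times, from 4.55 to 18.6 and from 6.95 to 29.0 CPM, overlapped, with 4 of 9 libraries at ZT18 above all those at ZT6. The amplitude was 0.19 (SE 0.09), with a fitted peak at ZT19.4 (adjusted p = 0.433). A call under one prefix and not under the other does not show that the profiles differ. The test of that difference gave p = 0.0198 for Crem before and 0.26 after adjustment by edgeR. For none of the 7 genes did the profile differ between prefixes by edgeR or DESeq2 (1 at an unadjusted p under 0.05), where 0.56% of all genes were called.

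**Figure D3:**
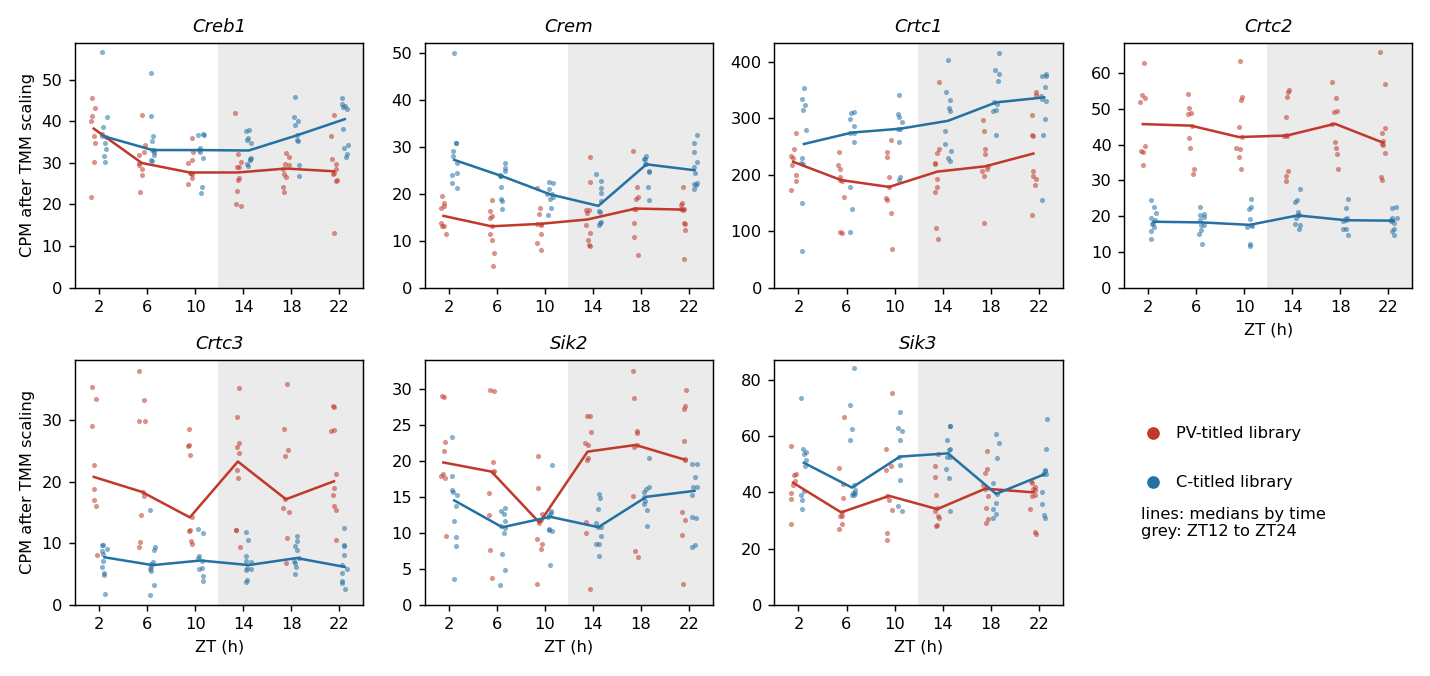
CPM after TMM scaling against zeitgeber time for the 7 genes. Points are libraries (8 to 10 per prefix and time, red PV, blue C, shifted sideways for visibility), lines join medians, and grey marks ZT12 to ZT24; the C medians of Crem fall from 27.2 CPM at ZT2 to 17.4 CPM at ZT14.

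Creb1 and Crtc1 had smaller or less stable profiles than Crem in C libraries. Creb1 ranged from 29.2 to 37.9 CPM (median 33.0) at ZT14, its lowest time, and from 31.3 to 45.6 CPM (median 40.5) at ZT22, its highest. Of the 10 libraries at ZT22, 6 lay above all those at ZT14. Its amplitude was 0.13 (SE 0.04), with a peak at ZT22.9 (edgeR adjusted p = 0.0323). Crtc1 ranged from 64.7 to 354 CPM (median 254.6) at ZT2 and from 155 to 379 CPM (median 337) at ZT22, and these ranges overlapped widely. The amplitude of Crtc1 was 0.25 (SE 0.08), with a peak at ZT18.0 (edgeR adjusted p = 0.038). Leaving out the same 5 libraries, all at ZT2 or ZT6, it was 0.14 (adjusted p = 0.109), whereas Creb1 then had 0.13 (adjusted p = 0.0236). Creb1 was called within neither range, at 0.07 (adjusted p = 0.634) and 0.20 (adjusted p = 0.084), and Crtc1 within the second alone, at 0.34 (adjusted p = 0.0288) against 0.20 (adjusted p = 0.58) in the first. In PV libraries neither gene was called, though the amplitudes were of similar size. They were 0.14 (SE 0.06, peak ZT3.5, edgeR adjusted p = 0.293) for Creb1 and 0.21 (SE 0.08, peak ZT20.3, edgeR adjusted p = 0.249) for Crtc1.

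The other 4 genes were not called rhythmic under either prefix. Sik2 had fitted peaks at ZT20.5 in both, with amplitudes of 0.24 (SE 0.13, adjusted p = 0.502) in PV and 0.26 (SE 0.09, adjusted p = 0.0709) in C libraries. In C libraries of the second range its amplitude was 0.44 (adjusted p = 0.0183), and in the first range it was 0.14 (adjusted p = 0.817). Sik3 had an amplitude of 0.13 (SE 0.06, adjusted p = 0.204) in C and 0.04 (SE 0.07, adjusted p = 0.943) in PV libraries. Crtc2 and Crtc3 had the smallest amplitudes under both prefixes. These were 0.01 (SE 0.06) and 0.03 (SE 0.08) in PV libraries, and 0.08 (SE 0.04) and 0.07 (SE 0.09) in C ones. In PV libraries they differed from the amplitude of Sik3 by less than its SE.

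**Figure D4:**
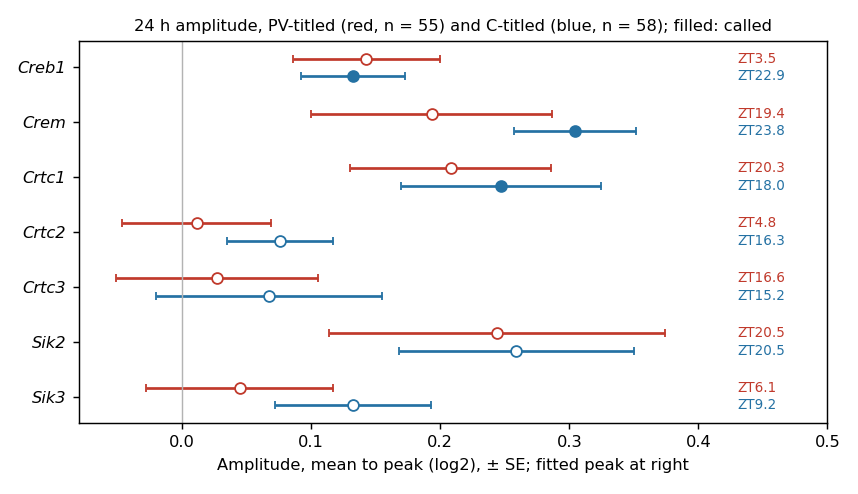
Amplitude of the 24 h fit (mean to peak, log2) with its SE for each gene, in PV (red, n = 55) and C (blue, n = 58) libraries. Filled points passed the threshold and fitted peak times stand at the right; the filled points are Creb1 (0.13), Crem (0.30) and Crtc1 (0.25) in C libraries.

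Sex made no difference that passed the test. None of the 7 genes differed between females and males under either prefix by edgeR (none at an unadjusted p under 0.05), where 0.0307% of all genes were called in PV and 0.184% in C libraries. Estimates ran from -0.06 for Sik3 to 0.15 for Crem in PV libraries (male minus female, log2), and from -0.06 to 0.14 in C ones. No profile differed between the sexes, with 0% of all genes called under either prefix (707 genes at an unadjusted p under 0.05 in PV and 1.32% of genes in C libraries, Crem among the former at p = 0.0387). Within females alone, Sik2 (0.28, adjusted p = 0.109) and Sik3 (-0.19, adjusted p = 0.0804) were not called between the prefixes. The product of prefix and sex, also added after these values were seen, gave adjusted p = 0.999 for both, with 0% of all genes called (359 at an unadjusted p under 0.05).

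Genes whose level varied most like that of each called gene were looked up over the 58 C libraries. The measure was the Pearson correlation of log2 CPM after removal of sex and range. It does not separate the daily profile from other variation between libraries. Crem was most like Polb (0.75), a DNA polymerase of base excision repair, followed by Usp45 and Cmc2 (both 0.70). Creb1 was most like Tmem106b (0.82), Uhmk1 (0.81) and Etnk1 (0.80). Crtc1 was most like Fbxl16 and Palm (both 0.97) and Numbl (0.95). The libraries called apart are among the points. By Spearman correlation the first gene stayed Polb for Crem (0.72) and Tmem106b for Creb1 (0.84), but others changed. For Crem, Blnk (0.71) and Pigb (0.70) took the places of Usp45 and Cmc2, and for Creb1, Dzank1 (0.82) that of Etnk1. For Crtc1, Palm (0.90) came before Fbxl16 (0.88), and Plppr2 (0.88) took the place of Numbl. Uhmk1, Etnk1, Dzank1 and Plppr2 were not called rhythmic in C libraries (edgeR adjusted p = 0.19, 0.187, 0.627 and 0.0876). The other genes named for likeness were called. Among the 7 genes themselves the closest pairs in C libraries were Crtc1 with Sik2 (0.77) and Crtc3 with Sik2 (0.65), which were 0.36 and 0.27 over the 55 PV libraries. These points share library and depth, and the values are descriptions.

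Genes around the pathway were read from 6 lists, beside the shares of all genes given above. Upstream, the cAMP and protein kinase A list held 19 tested genes, of which 5 were higher in PV and 11 in C libraries (median log2 difference, PV minus C, -0.28). The kinase subunits were on the C side: Prkar1b, a regulatory subunit, at -1.19 (SE 0.04, adjusted p = 6.84e-51) and Prkar1a at -0.68 (SE 0.03, adjusted p = 1.46e-39). The PV side held the adenylyl cyclases Adcy1, Adcy5 and Adcy8 and the phosphodiesterases Pde4d at 1.11 (SE 0.10, adjusted p = 9.15e-19) and Pde10a at 0.77 (SE 0.06, adjusted p = 3.3e-22). Both of these classes went both ways. The cyclases Adcy3 (-0.35) and Adcy9 (-0.38) and the phosphodiesterase Pde4b (-0.78), also named after their values were seen, were called higher in C libraries. Of 16 genes for calmodulin kinases and calcineurin, 13 were higher in C libraries and 1 in PV ones (median -0.66). The latter was Rcan2, which modulates calcineurin, at 1.29 (SE 0.06, adjusted p = 6.53e-40). The calcineurin subunit Ppp3ca was at -0.93 (SE 0.04, adjusted p = 3.7e-46) and the CREB kinase Camk4 at -0.88 (SE 0.04, adjusted p = 1.88e-41).

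On the side of the kinases, 13 genes of the LKB1 complex, which activates salt-inducible kinases, and related kinases had 2 members higher in PV and 6 in C libraries (median 0.02). Strada, the pseudokinase partner of LKB1, stood at 0.75 (SE 0.06, adjusted p = 1.58e-20), and Mark2 at -0.59 (SE 0.05, adjusted p = 1.11e-18). The list of 14-3-3 proteins and class IIa HDACs, targets of SIK kinases beside CRTC, separated by family. All 6 tested 14-3-3 genes were higher in C libraries, with Ywhah at -1.53 (SE 0.04, adjusted p = 5.04e-63) and Ywhab at -1.26 (SE 0.03, adjusted p = 1.07e-65). Hdac7 (2.43, SE 0.10, adjusted p = 9.18e-47), Hdac5 and Hdac4 were higher in PV libraries and Hdac9 in C ones. Of 10 CREB coactivators and relatives, 8 were higher in PV libraries (median 0.61). The histone acetyltransferase Ep300 was at 1.22 (SE 0.08, adjusted p = 5.56e-30) and Crebzf at 2.31 (SE 0.10, adjusted p = 1.8e-43). On the C side were Atf2 (-0.58) and Creb3 (-0.47).

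Of 19 known CREB target genes, 9 were higher in C libraries, 3 were higher in PV ones and 7 were not called (median -0.21), beside 43.2% and 44.3% of all genes. Bdnf, the neurotrophin, was at -1.53 (SE 0.07, adjusted p = 4.93e-42) and Scg2, a granin, at -1.02 (SE 0.06, adjusted p = 1.26e-34). The 3 on the PV side were Sst, which is also an interneuron marker, at 2.25 (SE 0.09, adjusted p = 5.62e-48), the mitochondrial coactivator Ppargc1a at 0.97 (SE 0.05, adjusted p = 7.64e-34) and the clock gene Per2 at 0.25.

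Of these targets, 7 of 19 were called rhythmic in PV libraries, beside 3.1% of all genes, and 13 of 19 in C libraries, beside 26.9%. The other lists, with 10 to 19 tested genes each, had 0 to 2 and 2 to 7 such genes, and the difference between lists was not tested. The target list includes the clock genes Per1 and Per2, and lists were chosen with earlier results of these data known. These counts are therefore descriptions. All 7 in PV libraries and 11 of 13 in C libraries peaked between ZT12 and ZT24. Among all genes called rhythmic, the share with peaks in that window was not counted, so this timing cannot be read as particular to the targets. The clock gene Per2 had amplitudes of 0.65 (SE 0.08, peak ZT17.9, adjusted p = 9.94e-07) in PV and 0.59 (SE 0.08, peak ZT18.6, adjusted p = 2.39e-06) in C libraries. The activity-induced gene Arc had amplitudes of 0.99 (SE 0.17, peak ZT18.3, adjusted p = 0.000395) in PV and 1.02 (SE 0.18, peak ZT16.2, adjusted p = 0.000182) in C libraries. Those of Nr4a1 were 0.52 (SE 0.09, peak ZT19.5, adjusted p = 0.000339) in PV and 0.46 (SE 0.12, peak ZT16.6, adjusted p = 0.00938) in C libraries. Inhba (0.40, SE 0.08, adjusted p = 0.000734) and Bdnf (0.19, SE 0.05, adjusted p = 0.00839) peaked outside that window in C libraries, at ZT1.0 and ZT2.5. The peak of Crem in C libraries, ZT23.8, lay between those of the targets within the window and these. When the libraries called apart were left out, 12 of the 13 remained called in C libraries, all but Bdnf (0.13, adjusted p = 0.0583). All 7 remained in PV libraries, with Fos added. Of all genes, 22% were called in C and 4.06% in PV libraries without those called apart. How many calls over all genes were kept was not counted.

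In the other lists some calls of rhythm in C libraries were lost without those libraries and others were gained. The calls kept were 1 of 2 in the cAMP and protein kinase A list, 5 of 7 in the calmodulin kinase and calcineurin list, 1 of 2 in the LKB1 list, 1 of 3 among 14-3-3 proteins and HDACs, and 0 of 2 among coactivators and relatives. Gained were Ppp3cc, Rcan1, Strada, Hdac9, Atf4 and Creb3l2. Akap5, which anchors protein kinase A, went from an amplitude of 0.51 (adjusted p = 0.0163) to 0.04 (adjusted p = 0.932) without them. Ywhaz went from 0.45 (adjusted p = 0.0188) to 0.04 (adjusted p = 0.795), Crebbp from 0.32 (adjusted p = 0.0441) to 0.04 (adjusted p = 0.771) and Crebl2 from 0.73 (adjusted p = 0.0101) to 0.07 (adjusted p = 0.866). Crebl2, named after its values were seen, was the single list member whose rhythm differed between prefixes (adjusted p = 0.0152), and none did so without those libraries. By contrast, Camkk1, an upstream kinase of CaMKs, was called under both prefixes with and without them: its amplitudes were 0.32 (peak ZT17.7, adjusted p = 0.00111) in PV and 0.27 (peak ZT17.0, adjusted p = 0.000528) in C libraries. The class IIa HDAC gene Hdac5 was likewise called under both, with 0.22 (peak ZT18.0, adjusted p = 0.0357) and 0.24 (peak ZT17.9, adjusted p = 0.00059).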

How the data were processed

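The authors deposited 1 table of read counts per gene, made against GRCm38; the submitters' processing notes name FastQC, HTSeq and DESeq2, with aligner and versions not given in the sources used here. Of its 114 library columns 113 were used; 1 column names a sex that differs from the title it would match and was left out. Reads on no gene (51.9% to 67.7% of a library's counts) were left out of totals. Symbols, positions and exon lengths came from GENCODE vM21, and 13051 of 13101 identifiers had a symbol.

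Counts were analysed in R 4.3.3 with edgeR 4.0.16: TMM scaling, filterByExpr, quasi-likelihood F tests and Benjamini-Hochberg adjustment over all genes, with adjusted p values from edgeR unless DESeq2 1.42.0 is named. The fit between prefixes had time, sex and range as terms. Rhythm was tested by cosine and sine of 24 h within a prefix, with sex and range. CPM are after TMM scaling. Code was tested on simulated data. A library is called apart when its median correlation lies more than 5 scaled median absolute deviations below its prefix's median. Named from each list are the called genes with the smallest p in each direction, and any others in a count of 5 or fewer were named after their values were seen. Members and lists were chosen with earlier results of these data known.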

Additional observations from a re-analysis of the deposited data

Results flagged for a closer look

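Within groups of 1 prefix and time, the highest or lowest CPM (on a log2 scale) was set against the gap to its nearest neighbour (Dixon's ratio, 95% critical value). Of 84 such groups, counted per gene, 13 held a library far from the others. Chance marks about 1 in 20 of independent groups, but these are not independent, since each library enters once for every gene. In 9 of the 13 the library is one of those called apart by their correlation. For Creb1 the marked values were a high one of 56.7 CPM in C libraries at ZT2 and a low one of 13.2 CPM in PV libraries at ZT22. For Crem they were likewise 49.9 CPM at ZT2 and 6.19 CPM at ZT22, from the same libraries as for Creb1. Crtc1 was low in C libraries at ZT2 (64.7 CPM) and ZT22 (155 CPM) and in PV libraries at ZT10 (67.7 CPM) and ZT18 (115 CPM). Crtc3 was low in 1 C library at ZT2 (1.82 CPM), the one marked for Crtc1 at that time. Sik2 was low in PV libraries at 4 times, with 9.58 CPM at ZT2, 2.95 CPM at ZT10, 2.22 CPM at ZT14 and 2.82 CPM at ZT22. Its library at ZT10 is the one marked for Crtc1, and its library at ZT22 the one marked for Creb1 and Crem.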

How the results depend on the processing

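Directions between prefixes held for all 7 genes in each of 17 alternatives, and Crem was called rhythmic in C libraries in all 17 (amplitude 0.27 to 0.34). Of the 7 genes, 1 was called rhythmic in C libraries with library totals, in the first range, in females, in males and with time as a factor, in place of 3, and 1 to 3 when each title number was left out. In PV libraries leaving these out gave 0 to 1, the latter being Crtc1 without number 2. Of all genes, 3.1% were called rhythmic in PV and 26.9% in C libraries. These shares were 0.153% and 2.8% in the first range, 0.307% and 10.3% in the second, 0.997% and 2.07% in females, 0.0613% and 3.63% in males, 1.2% and 10% with time as a factor, and 0.729 to 2.62% and 15.2 to 23.2% without 1 title number. The rhythm differed between prefixes for 0.56% of genes, and for 0.284% with library totals, 0.138% without the libraries called apart, 0% in the first range (1415 genes at an unadjusted p under 0.05), 0.0153% in the second, 0.0307% in females, 0.00766% in males, 1.71% with no range term, 1.2% by DESeq2 and 0.0383 to 0.33% without 1 title number. The cause was not tested. Residuals of libraries with the same title number correlated at 0.007 (PV) and 0.066 (C) on average. Those with other numbers averaged -0.022 (PV) and -0.026 (C). The averages for the same number were thus low, but higher under both prefixes. With title numbers as a replicate block the rhythm differed between prefixes for 0.153% of genes, and the calls of the 7 genes were the same.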
